A study of Homo sapiens with 16 samples.

Results

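The regions described here are the ChIP-seq peaks of DNMT3B and OCT1 that start between 4 and 6 Mb of chromosome 9 (hg19), in band 9p24, where the peak lists are crowded and where the gene JAK2 lies. They numbered 1597 of the 118439 distinct peaks in 4 lists. The lists hold peaks of MCF10CA1a cells, an established invasive human breast cancer cell line, after 9 days with 7 µM pterostilbene (PTS), a stilbenoid from the diet, or with its vehicle, ethanol. Antibodies were directed against DNMT3B or OCT1, with 3 biological replicates for each antibody and treatment and 1 input library for each. All 3 replicates were pooled by the authors into 1 list, so no value below has a replicate error and no test between treatments was possible. The labels call 1 list of each antibody enriched in PTS and the other enriched in Ctrl, and the peak names set P against C or C against P. The deposited folds hold no ratio between treatments, and places with a peak in both lists occur, so a peak after PTS or after vehicle means here a peak of the list with that label. Whether the calling itself set 1 treatment against the other was not tested. The DNMT3B lists held 80 of 4326 peaks in the region after PTS (1.85%) and 419 of 15855 after vehicle (2.64%). The OCT1 lists held 360 of 16071 after PTS (2.24%) and 738 of 82187 after vehicle (0.898%). The region was chosen by its number of peaks in these lists, so its crowding is a description. The label of the region names JAK2, but the crowding was not centred on that gene, as the counts per 100 kb below show.

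DNMT3B is a DNA methyltransferase that places new methyl groups on cytosine, mostly where cytosine is followed by guanine (CpG). OCT1, the product of POU2F1, is a widely expressed transcription factor that binds the octamer ATGCAAAT. JAK2 is the tyrosine kinase that cytokine receptors use to phosphorylate STAT transcription factors, and its neighbours CD274 and PDCD1LG2 encode PD-L1 and PD-L2, ligands of the inhibitory T-cell receptor PD-1.

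The sequences of 5 places on which the results turn are given first, each from the plus strand of hg19. The first 3 are 200 bases at the summits of the strongest DNMT3B peak after PTS, upstream of JAK2 (chr9:4935107-4935306), of the strongest DNMT3B peak in a JAK2 intron after vehicle (chr9:5023356-5023555) and of the strongest OCT1 peak in a JAK2 intron after PTS (chr9:5016182-5016381). Capitals mark each CpG, the usual substrate of DNMT3B.
JAK2 upstream, DNMT3B after PTS: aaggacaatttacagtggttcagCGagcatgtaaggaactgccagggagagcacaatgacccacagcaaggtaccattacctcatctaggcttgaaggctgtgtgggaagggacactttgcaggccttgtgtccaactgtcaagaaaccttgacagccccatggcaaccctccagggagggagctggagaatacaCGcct
JAK2 intron, DNMT3B after vehicle: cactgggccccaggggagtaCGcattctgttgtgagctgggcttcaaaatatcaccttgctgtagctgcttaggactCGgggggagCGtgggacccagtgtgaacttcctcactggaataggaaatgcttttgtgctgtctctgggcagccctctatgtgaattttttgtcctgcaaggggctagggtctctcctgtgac
JAK2 intron, OCT1 after PTS: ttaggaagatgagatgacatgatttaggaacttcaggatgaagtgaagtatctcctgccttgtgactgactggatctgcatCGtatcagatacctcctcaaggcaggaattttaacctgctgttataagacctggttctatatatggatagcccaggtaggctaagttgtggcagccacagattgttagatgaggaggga
The strongest OCT1 peak of the region lay in a JAK2 intron after vehicle and contains 2 overlapping octamers on opposite strands (chr9:5020569-5020708), shown in capitals.
JAK2 intron, OCT1 octamers: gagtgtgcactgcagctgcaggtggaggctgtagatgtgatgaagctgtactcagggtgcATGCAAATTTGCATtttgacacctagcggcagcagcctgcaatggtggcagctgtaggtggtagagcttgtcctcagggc
The last is the part of the OCT1 peak at the JAK2 start that lies upstream of the gene (chr9:4984198-4984389), again with CpGs in capitals.
JAK2 promoter: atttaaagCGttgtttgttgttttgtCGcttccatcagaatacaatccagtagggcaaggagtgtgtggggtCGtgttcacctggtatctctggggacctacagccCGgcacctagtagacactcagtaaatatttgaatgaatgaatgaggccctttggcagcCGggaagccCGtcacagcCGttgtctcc

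Every 100 kb of the 2 Mb held peaks of every list. The mean per 100 kb was 4.0 DNMT3B peaks after PTS and 20.95 after vehicle, and 18 OCT1 peaks after PTS and 36.9 after vehicle. These were 34.2, 42.9, 36.1 and 13.8 times the mean of the same list over chromosomes 1 to 22 and X. All 20 bins of 100 kb held at least 3 times that mean in each list. Among 1530 windows of 2 Mb the region ranked 9 and 3 by DNMT3B peaks (PTS and vehicle) and 4 and 8 by OCT1 peaks (PTS and vehicle), and a window at 72 to 74 Mb of chromosome 10 ranked first in all lists.

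The crowded stretch was much longer than the 2 Mb. As an unbroken run of bins with at least 3 times the mean, it measured 3.8 Mb in the DNMT3B list of PTS-treated cells, from a peak at chr9:3587008-3587281 (pileup 18.3) to a peak at chr9:7277302-7277550 (pileup 16.4). In that list 1 peak in 100 kb was enough to pass, and the run ended at stretches without any peak, 404452 bp before it and 150854 bp after it. The run measured 9.0 Mb in the DNMT3B list of vehicle-treated cells, 7.8 Mb in the OCT1 list of PTS-treated cells and 7.6 Mb in the OCT1 list of vehicle-treated cells. These 3 runs began near the end of the chromosome, with first peaks at chr9:206766-207043 (pileup 20), chr9:200967-201255 (pileup 17.8) and chr9:200862-201303 (pileup 25), and they ended in a thinner stretch, at chr9:9173637-9173850 (pileup 14), chr9:7996667-7996874 (pileup 20.8) and chr9:7799426-7799691 (pileup 15). The gaps before them were 102477, 96702 and 86003 bp, and those after them 40306, 39682 and 30109 bp. Crowding then returned beyond 12 Mb. A sharper edge lay before 21 Mb in all lists. The last peaks before it were chr9:20728914-20729157 and chr9:20878743-20879092 for DNMT3B (PTS and vehicle) and chr9:20860459-20860765 and chr9:20882239-20882636 for OCT1 (PTS and vehicle). The next peaks followed after 6207745 bp, 3391991 bp, 762288 bp and 676653 bp. Between 19 and 21 Mb there were 64 and 325 DNMT3B peaks (PTS and vehicle), and between 21 and 24 Mb there were 0 and 0. The OCT1 counts were 313 and 643 against 1 and 7. Chromosome 9 up to 21 Mb, which is 0.692% of the length of chromosomes 1 to 22 and X, held 11.9% and 18.6% of all DNMT3B peaks and 15.7% and 6.91% of all OCT1 peaks (PTS and vehicle).

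**Figure D1:**
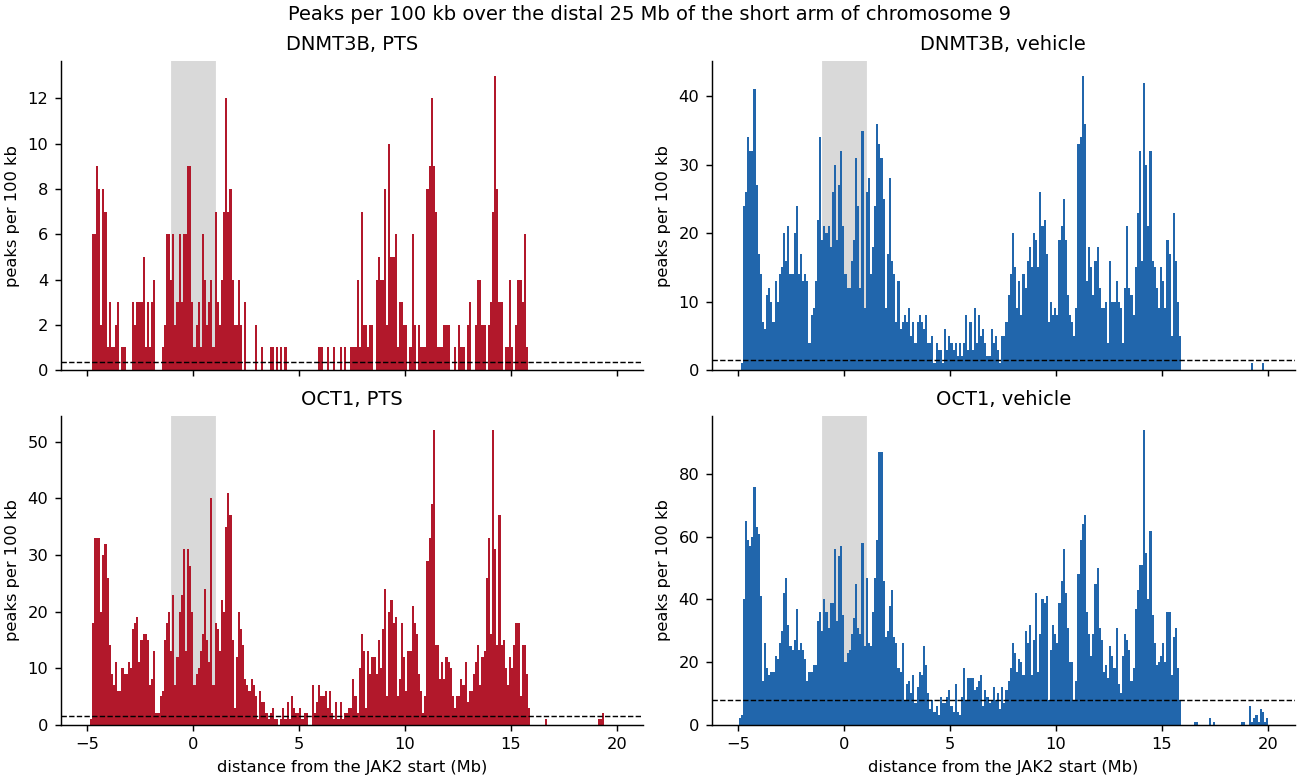
Peaks per 100 kb (bars, a separate scale in each panel) against the distance from the JAK2 start in Mb, for DNMT3B and OCT1 after PTS (left) and after vehicle (right). The grey band marks the 2 Mb described here and the dashed line 3 times the list's mean per 100 kb. The bars fill the band and run beyond it on both sides up to an edge before 21 Mb, with a thinner stretch between 8 and 12 Mb of the chromosome.

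Peaks next to the limits of the region were like those inside. Just before 4 Mb the pileups were 18.3 and 15 for DNMT3B and 21.8 and 14 for OCT1 (PTS and vehicle), and just after 4 Mb they were 15.5 and 16 for DNMT3B and 17.8 and 18 for OCT1. The last peaks before 6 Mb had 18.3 and 16 for DNMT3B and 17.8 and 15 for OCT1, and the first after 6 Mb had 16.4 and 22 for DNMT3B and 17.8 and 17 for OCT1.

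Within the 2 Mb the count of peaks followed the base composition of the bins. The bin with the most peaks in 3 lists began at 5.8 Mb and holds part of ERMP1, a gene for a metallopeptidase of the endoplasmic reticulum. It held 42.8% G + C and had 35 DNMT3B peaks after vehicle, and 40 OCT1 peaks after PTS and 58 after vehicle. The bin at 5.9 Mb had the lowest G + C content, 36.0%, and held 1 DNMT3B peak after PTS and 9 after vehicle, and 7 OCT1 peaks after PTS and 25 after vehicle. The bin at 5.0 Mb, filled by JAK2, had 36.5% G + C. It held 1 DNMT3B peak after PTS and 14 after vehicle, and 7 OCT1 peaks after PTS and 20 after vehicle, the lowest OCT1 count of vehicle-treated cells in the 2 Mb. Across the 20 bins Pearson's r between G + C content and count was 0.718 for DNMT3B after PTS and 0.855 after vehicle, and 0.847 for OCT1 after PTS and 0.896 after vehicle. Spearman's rho was 0.750, 0.838, 0.855 and 0.937 in the same order. The bins come from the same pooled libraries and neighbour each other, so these values describe the region only. Over the 210 bins up to 21 Mb, r was 0.603 and 0.788 for DNMT3B and 0.819 and 0.860 for OCT1 (PTS and vehicle). The thin stretch from 8 to 12 Mb had a median of 35.3% G + C. The nearly empty stretch from 21 to 24 Mb had 37.5%, against 38.5% for the bins up to 21 Mb. Within the 40 bins from 8 to 12 Mb, r was lower, at 0.186 and 0.554 for DNMT3B and 0.216 and 0.664 for OCT1 (PTS and vehicle). Mean counts per bin after PTS were only 0.275 for DNMT3B and 2.8 for OCT1 there. Whether base composition shapes the recovery of fragments in these libraries was not tested.

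**Figure D2:**
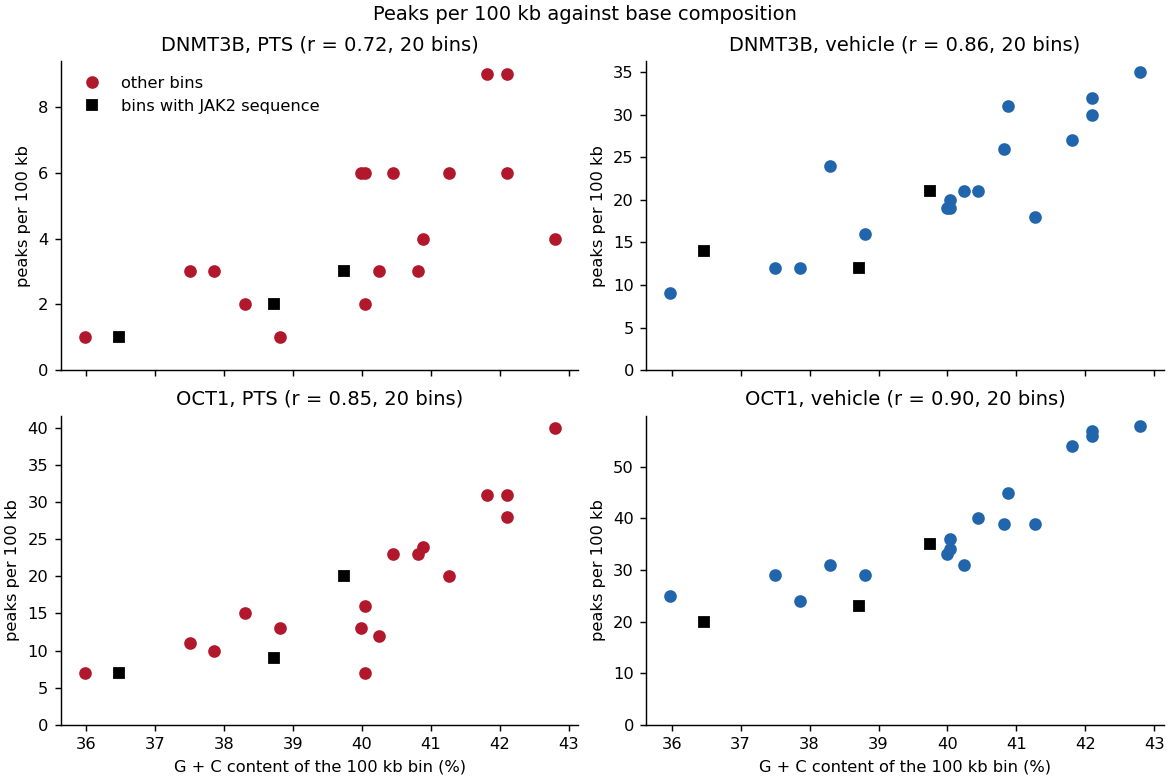
Peaks per 100 kb against the G + C content of the bin in percent, for the 20 bins of the region, with PTS on the left and vehicle on the right. Each point is a bin and black squares are the 3 bins with JAK2 sequence. Counts climb with G + C content in all 4 panels, and the JAK2 bins lie in the lower and middle part of the cloud.

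The same positions along the region were crowded for both antibodies. Between the DNMT3B and OCT1 lists of PTS-treated cells, r across the 20 bins was 0.646, and between those of vehicle-treated cells 0.901. These lists share the base composition of the bins.

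Each peak of the region was weak. Pileup is the number of pooled fragments over the summit, with the fragments of PTS-treated cells weighted by the authors at 0.913 each for DNMT3B and 0.990 for OCT1 to match the depth of vehicle-treated cells. For DNMT3B the lowest, median and highest pileups were 13.7, 17.4 and 23.7 after PTS, and 12, 15 and 30 after vehicle. For OCT1 they were 13.9, 17.8 and 25.7 after PTS, and 12, 17 and 32 after vehicle. The pileups of both treatments overlapped over nearly their whole range. Over the whole lists the medians were 19.2 and 15 for DNMT3B and 17.8 and 15 for OCT1 (PTS and vehicle), while the highest pileups reached 364 and 400, and 396 and 399. Thus the region stood out by the number of its peaks, and its highest pileup was far below the highest of each list. The fold enrichment of the authors sets the pileup against 1 background value for a whole list, 3.20 fragments for DNMT3B and 3.50 for OCT1. Fragments that input DNA of this region would give were therefore not divided out, and their part in the crowding was not tested. Median folds of the peaks in the region were 4.37 and 3.81 for DNMT3B and 4.18 and 4.00 for OCT1 (PTS and vehicle). The peaks were short, with median lengths of 232.5 and 258 bp for DNMT3B and 274.5 and 307 bp for OCT1. Together they covered 1.04% and 6.15% of the 2 Mb for DNMT3B and 5.70% and 13.7% for OCT1. The median distance between neighbouring summits was 15650 and 2963 bp for DNMT3B and 3132 and 1740 bp for OCT1.

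**Figure D3:**
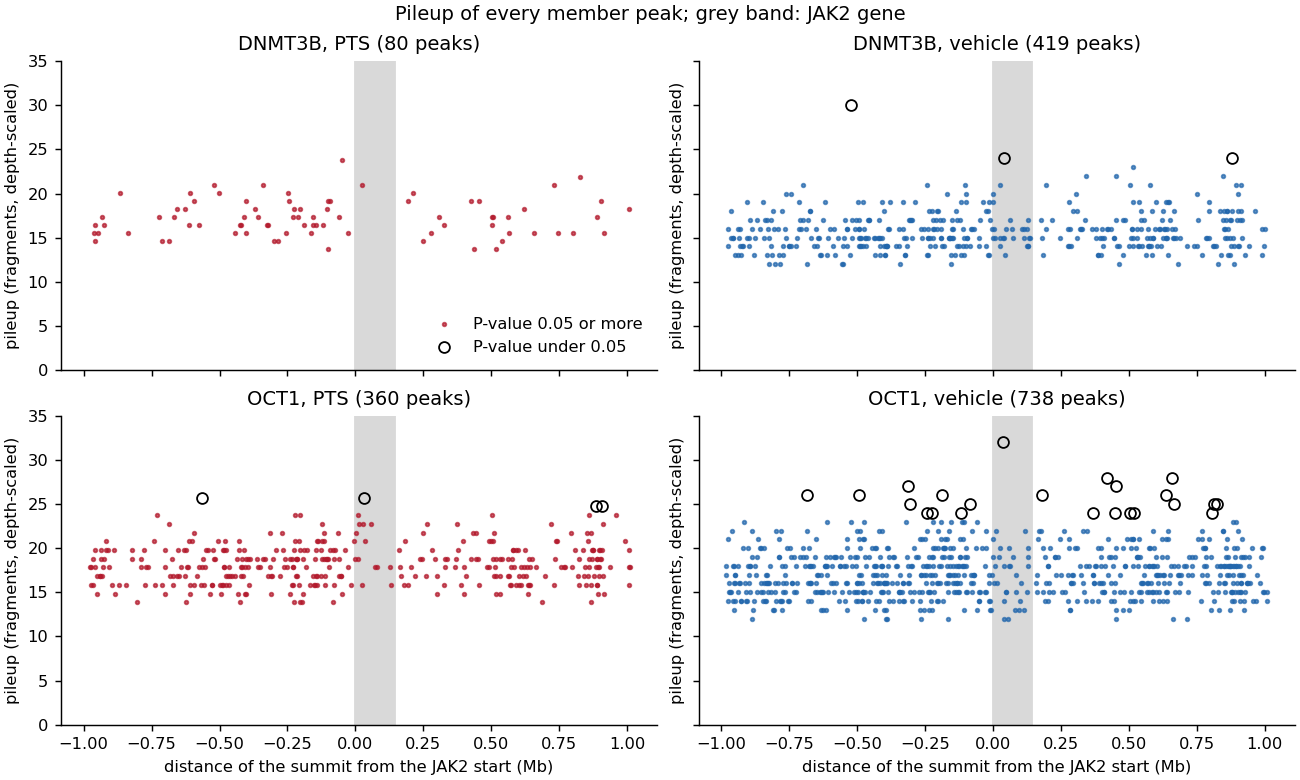
Pileup of each peak (depth-scaled fragments) against the distance of its summit from the JAK2 start in Mb, with PTS on the left and vehicle on the right. The grey band is the JAK2 gene and open circles have a deposited P-value under 0.05. Points between 12 and 32 fill the whole length of the region, and open circles are spread over it, with 1 in JAK2 in each list except that of DNMT3B after PTS.

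Few of the peaks passed the deposited P-value of 0.05. This score is a value the authors derived from the −log10 p-value of each peak, and the lowest pileups that pass it were 24.7 and 24 for DNMT3B and 24.7 and 24 for OCT1 (PTS and vehicle). For DNMT3B, 0 of the 80 peaks passed after PTS, and with 3 counts taken as the limit that a count of 0 allows, the share could be up to 3.75%, and 3 of 419 passed after vehicle. The shares over the whole lists were 24.6% after PTS and 7.57% after vehicle, so the region lay below both. For OCT1, 4 of 360 passed after PTS (1.11%) and 23 of 738 after vehicle (3.12%). The shares over the whole lists were 9.11% and 2.37%, so the region lay below its list after PTS and above it after vehicle. These P-values come from the same lists as the choice of the region and are given as a description.

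The 3 DNMT3B peaks past it were chr9:4462460-4462798 upstream of SLC1A1, a glutamate transporter (pileup 30), chr9:5023335-5023588 in a JAK2 intron (24) and chr9:5863225-5863642 in an ERMP1 intron (24), which the authors assigned to MLANA. Within 200 bp of the first of them the DNMT3B list of PTS-treated cells had a pileup of 21, and near the others it had no peak. OCT1 also had a peak at this SLC1A1 place after vehicle (pileup 23). After PTS, the DNMT3B peak of highest pileup, 23.7, was chr9:4935081-4935499, upstream of JAK2. Its P-value was 0.0501. After vehicle DNMT3B had no peak within 200 bp of it, and the nearest lay farther on at chr9:4935855-4936117 (pileup 17). It was followed by peaks in ERMP1 (21.9), SPATA6L (21), JAK2 (21), RIC1 (21) and upstream of SLC1A1 (21).

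The 4 OCT1 peaks past the P-value after PTS were chr9:4421193-4421449 upstream of SLC1A1 and chr9:5016182-5016419 in a JAK2 intron, each with a pileup of 25.7, and chr9:5869409-5870492 in ERMP1 and chr9:5893242-5893581 in an intron shared by KIAA2026 and MLANA, the gene of a melanocyte antigen, each with 24.7. Within 200 bp the list of vehicle-treated cells had pileups of 18 upstream of SLC1A1, 20 in ERMP1 and 18 in MLANA, and no peak near the one in JAK2. After vehicle the 23 peaks spanned pileups of 24 to 32. The highest was chr9:5019731-5021243 in a JAK2 intron (32), with its summit at 5020085. Inside it OCT1 had a peak after PTS at chr9:5020310-5020922 (20.8), which does not cover that summit. Next among the vehicle peaks came chr9:5402403-5402744 in PLGRKT, a plasminogen receptor, and chr9:5642194-5642776 in RIC1, a regulator of Golgi trafficking. Both had 28 and no OCT1 peak nearby after PTS. A pileup of 27 was reached at chr9:4672746-4673107 near CDC37L1-AS1 and at chr9:5438223-5439212 before the PLGRKT start. The others lay at or near GLIS3, SLC1A1, CDC37L1, AK3, RCL1, INSL6, CD274, PDCD1LG2, ERMP1, PLGRKT and RIC1.

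Fewer peaks were listed after PTS than after vehicle for both antibodies, and the lists do not start at the same pileup. At a common minimum of 12.8 for DNMT3B, 80 peaks remained after PTS and 407 after vehicle, a ratio of 0.197, against 0.283 over the whole lists. At a common minimum of 12.9 for OCT1, 360 peaks were counted after PTS and 727 after vehicle, a ratio of 0.495, against 0.202 over the whole lists. With a minimum of 15 the ratios were 0.241 in the region against 0.38 over the lists for DNMT3B, and 0.530 against 0.258 for OCT1. Compared with the rest of its list, OCT1 thus had more peaks after PTS for each peak after vehicle in this region, and DNMT3B fewer. No replicate spread is available for these ratios.

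Pileups of the treatments can be compared only where both lists had a peak, and this choice keeps places that passed the calling in both and favours ratios near 1. DNMT3B peaks of the 2 treatments joined within 200 bp gave 448 regions, 34 with a peak in both lists, 44 after PTS alone and 370 after vehicle alone. Of the regions with a vehicle peak 8.42% also had a PTS peak, against 15.5% over the whole lists. Of those with a PTS peak 43.6% also had a vehicle peak, against 63.4% over the whole lists. A pileup ratio takes the highest pileup of each list anywhere in a joined region, so the summits behind it can lie apart. In the 34 regions the pileup ratio of PTS over vehicle ranged from 0.685 to 1.45, with a median of 0.974. Of these, 15 were higher after PTS and 19 after vehicle. The OCT1 peaks gave 751 regions, 229 in both lists, 94 after PTS alone and 428 after vehicle alone. Here 34.9% of the regions with a vehicle peak also had a PTS peak, against 10.3% over the whole lists. For regions with a PTS peak the share that also had a vehicle peak was 70.9%, against 57.5%. In the 229 regions the ratio ranged from 0.571 to 1.70, with a median of 0.989, and 105 were higher after PTS and 124 after vehicle. Without the depth scaling the medians were 1.07 for DNMT3B and 1 for OCT1, so the side of 1 on which the DNMT3B median lay depended on the scaling. Exact binomial intervals of single ratios, which cover counting error only, included 1 in all 34 DNMT3B and all 229 OCT1 regions. Over the whole DNMT3B lists, 0.0437% of shared regions had an interval above 1 and 0.131% below 1, and over the OCT1 lists 0.126% and 0.151%. The intervals are wide, with median bounds of 0.474 and 2.11 for DNMT3B and 0.489 and 2.02 for OCT1, so a change within about these bounds was not detectable at this depth. Regions listed after vehicle alone were also weak, with a median pileup of 15 for DNMT3B and 16 for OCT1, and the absence of a PTS peak there means only that none was listed.

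**Figure D4:**
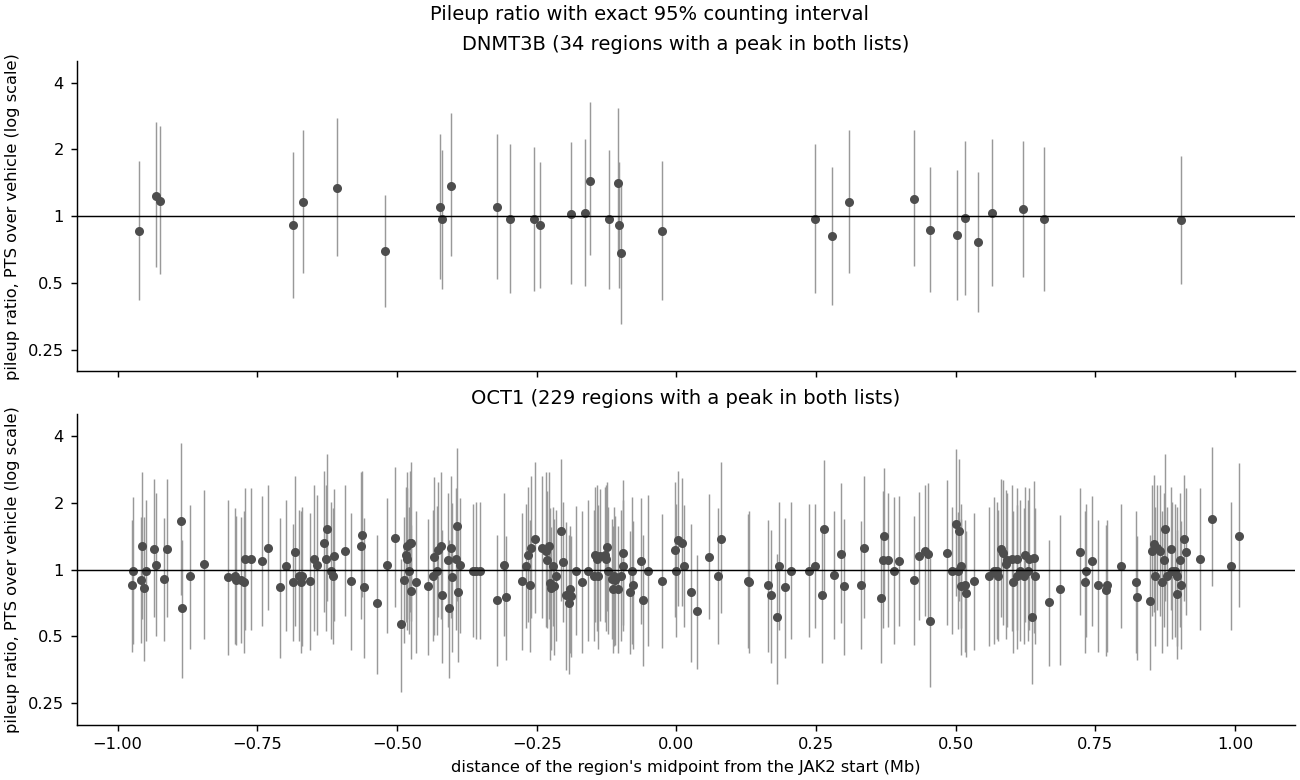
Pileup ratio of PTS over vehicle (log scale) against the distance from the JAK2 start in Mb, for DNMT3B (top, 34 regions) and OCT1 (bottom, 229 regions). Points are regions with a peak in both lists and vertical lines are exact 95% counting intervals. Every interval crosses the line at 1, over the whole length of the region.

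Among OCT1 peaks after vehicle, the stronger ones more often had a counterpart after PTS. One lay within 200 bp of 82 of 153 peaks with a pileup of 20 or more (53.6%, 45.7 to 61.3), of 163 of 471 peaks from 15 to under 20 (34.6%, 30.5 to 39) and of 28 of 114 weaker peaks (24.6%, 17.6 to 33.2). For DNMT3B these shares were 7 of 24 (29.2%, 14.9 to 49.2), 21 of 267 (7.87%, 5.2 to 11.7) and 7 of 128 (5.47%, 2.67 to 10.9). Over all pileups, 37.0% of the OCT1 vehicle peaks had a counterpart after PTS, against 12.5% of the whole list. Of the DNMT3B vehicle peaks 8.35% had one, against 18.7% of the whole list. All intervals of shares are 95% Wilson intervals and cover counting error only.

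DNMT3B and OCT1 peaks lay close together more often after vehicle. After PTS, 29 of 80 DNMT3B peaks were within 200 bp of an OCT1 peak (36.3%, 26.6 to 47.2), against 66.8% of the whole list. After vehicle, 256 of 419 were (61.1%, 56.3 to 65.6), against 55.5% of the whole list. Of the OCT1 peaks, 28 of 360 lay within 200 bp of a DNMT3B peak after PTS (7.78%, 5.44 to 11; whole list 18.3%) and 268 of 738 after vehicle (36.3%, 32.9 to 39.8; whole list 11%). These shares depend on the number of peaks in the other list, which was lowest for DNMT3B after PTS. When all 4 lists were joined within 200 bp, the region resolved into 871 places, of which 287 had peaks of both antibodies, 136 of DNMT3B alone and 448 of OCT1 alone. Peaks of all 4 lists met at 15 places, of 3 lists at 130 and of 2 lists at 255, while 471 had a peak of 1 list.

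The place of highest summed pileup among these 15 lay downstream of CD274 (chr9:5486998-5487924), with DNMT3B at 17.4 after PTS and 21 after vehicle and OCT1 at 23.8 after PTS and 24 after vehicle. It carried the heterochromatin state. Another lay in INSL4, a relaxin-family hormone gene (chr9:5231302-5232351), with DNMT3B at 14.6 and 15 and OCT1 at 21.8 and 21 (PTS and vehicle). A further one lay upstream of JAK2 (chr9:4958073-4958636), with DNMT3B at 15.5 and 18 and OCT1 at 17.8 and 20. At these places the values of both treatments were within their counting intervals of each other. Genes at the other 12 included RCL1, SLC1A1, PLPP6, PLGRKT, INSL6 and GLIS3.

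By the authors' assignment the peaks belonged to 21 genes, and JAK2 ranked 6th with 115 peaks over the 4 lists. The most, 301, were assigned to GLIS3, a zinc finger transcription factor, with 17 and 78 DNMT3B peaks and 62 and 144 OCT1 peaks (PTS and vehicle). SLC1A1 followed with 9 and 55 DNMT3B peaks and 52 and 91 OCT1 peaks. RCL1, which acts in ribosomal RNA processing, had 12 and 47 DNMT3B peaks and 48 and 83 OCT1 peaks. PDCD1LG2 had 5 and 35 DNMT3B peaks and 28 and 51 OCT1 peaks, and RIC1 had 4 and 33 and 25 and 54. ERMP1 had 2 and 24 DNMT3B peaks and 22 and 34 OCT1 peaks, and MLANA had 3 and 17 and 19 and 37. AK3, a mitochondrial adenylate kinase, had 5 and 16 DNMT3B peaks and 17 and 36 OCT1 peaks, and PLGRKT had 3 and 19 and 15 and 37. In all of these genes and for both antibodies the count after PTS was below that after vehicle. CD274 had 2 and 7 DNMT3B peaks and 6 and 11 OCT1 peaks.

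Counts per gene follow gene length, so summits per 100 kb of gene were compared for the 11 genes with at least 50 kb in the region. JAK2 was the sparsest of them in the DNMT3B list of PTS-treated cells, with 0.687 per 100 kb against 9.68 in RCL1, the densest. After vehicle JAK2 ranked 8th for DNMT3B with 17.2, against 34.6 in PDCD1LG2 and 8.09 in INSL6. For OCT1 JAK2 ranked 10th in both lists, with 9.62 after PTS and 21.3 after vehicle. The densest genes were SLC1A1 after PTS (33.0) and RCL1 after vehicle (63.5), and the sparsest were RIC1 after PTS (8.13) and INSL6 after vehicle (21).

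**Figure D5:**
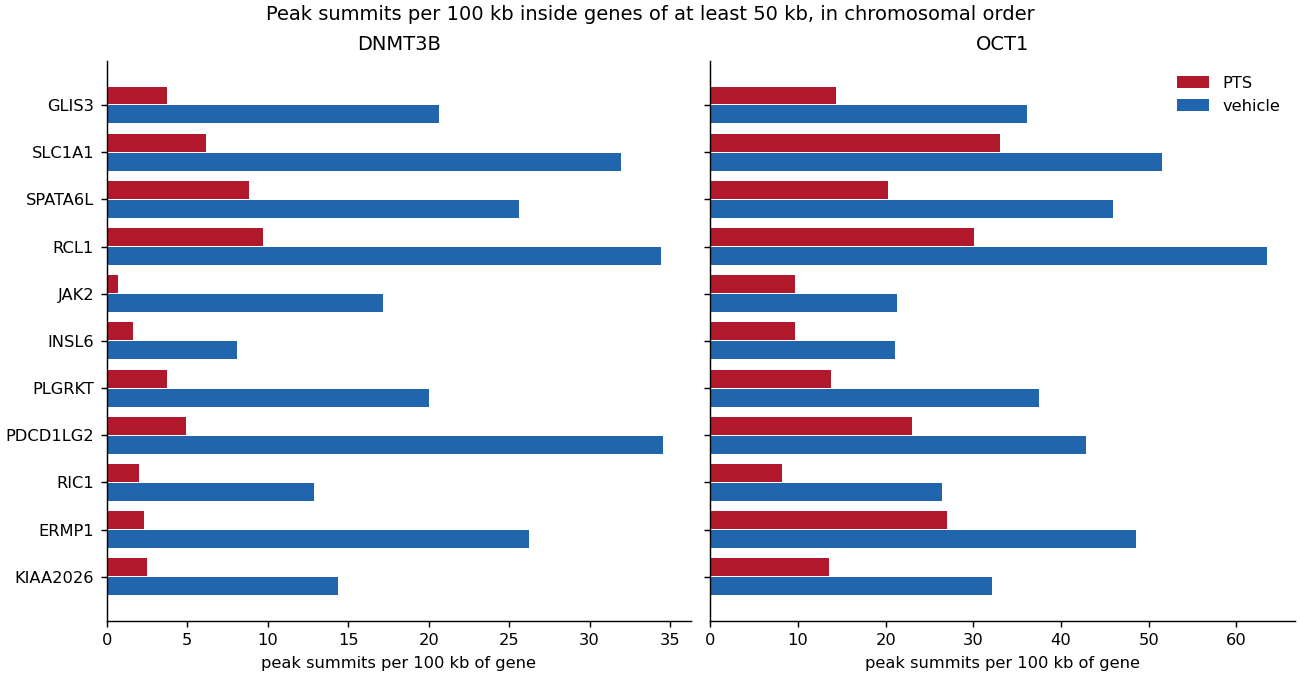
Peak summits per 100 kb of gene for DNMT3B (left) and OCT1 (right) in the 11 genes with at least 50 kb inside the region, in chromosomal order from the top, with PTS above vehicle for each gene. The bar after PTS is the shorter of each pair. JAK2 has short bars beside RCL1, at 0.687 and 17.2 for DNMT3B and 9.62 and 21.3 for OCT1.

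JAK2 spans chr9:4984390-5129948 on the plus strand (GENCODE). Of the peaks assigned to it, DNMT3B had 4 after PTS, with pileups of 17.4, 23.7, 15.5 and 21 in chromosomal order. Their summits lay at −60.4, −49.2, −26.3 and 23.6 kb from the start, so that 3 were upstream and 1 in an intron. After vehicle DNMT3B had 38, with pileups of 13 to 24 and a median of 15.5, of which 22 were intronic, 13 outside genes and 3 at exons. OCT1 had 22 after PTS (14.8 to 25.7, median 18.3) and 51 after vehicle (12 to 32, median 16). At the JAK2 start itself OCT1 had a peak after both treatments, chr9:4984198-4984655 with a pileup of 18.8 after PTS and chr9:4984344-4984663 with 19 after vehicle. DNMT3B had a peak there after vehicle (chr9:4984480-4984718, pileup 20), and after PTS its nearest was the intronic peak 23.6 kb downstream, chr9:5007815-5008050. All 3 peaks at the start carried the active promoter and strong enhancer states, and the promoter sequence shown above holds 7 CpGs in 192 bases. After vehicle DNMT3B also had peaks close by, at chr9:4983721-4984041 (pileup 15) and chr9:4984878-4985203 (pileup 19). OCT1 after vehicle had a further one at chr9:4984990-4986154 (pileup 21). The absence of a DNMT3B peak at the start after PTS is set against vehicle pileups of 15 to 20 fragments and has no replicate check. Before the midpoint of JAK2 lay 10 of its 14 OCT1 summits after PTS and 18 of 31 after vehicle. For DNMT3B the counts were 1 of 1 and 14 of 25. These counts are small, and whether summits favour a part of the gene was not tested.

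Most peaks of the region carried the heterochromatin or low-signal state of the ChromHMM map of human mammary epithelial cells (HMEC), with shares of 62.5% (51.5 to 72.3) and 57.5% (52.7 to 62.2) for DNMT3B after PTS and vehicle, against 28.1% and 43.8% of the whole lists. For OCT1 the shares were 60.6% (55.4 to 65.5) and 59.9% (56.3 to 63.4), against 45.1% and 48.3%. Transcribed states followed with 25% and 27.9% for DNMT3B and 27.5% and 30.8% for OCT1, near the 28% to 29.1% of the whole lists. Enhancer states were listed for 10% (5.15 to 18.5) and 14.8% (11.7 to 18.5) of DNMT3B peaks and for 13.9% (10.7 to 17.8) and 11.2% (9.16 to 13.7) of OCT1 peaks, and the whole lists had 17% to 18.5%. Repetitive states held 26.7% and 8.06% of all DNMT3B peaks and 6.93% and 1.57% of all OCT1 peaks (PTS and vehicle). In the region they were at 0 for DNMT3B and OCT1. The same limit of 3 counts allows 3.75% and 0.716% for DNMT3B and 0.833% and 0.407% for OCT1. The upper Wilson bounds are 4.58% and 0.908% for DNMT3B and 1.06% and 0.518% for OCT1. The states come from HMEC and not from the cells studied. Promoter states were listed for 3 and 16 DNMT3B peaks, 3.75% and 3.82%, against 3.60% and 5.18% of the whole lists (PTS and vehicle). For OCT1 they were listed for 9 and 28 peaks, 2.5% and 3.79%, against 3.86% and 6.83% of the whole lists. The 3 DNMT3B promoter peaks after PTS lay at PLPP6, at AK3 (chr9:4740519-4740952, pileup 19.2, against 21 after vehicle) and at PLGRKT (chr9:5437397-5437820, pileup 19.2, against 22 after vehicle). OCT1 promoter peaks of highest pileup after vehicle lay at GLIS3 (chr9:4298242-4298854) and SLC1A1 (chr9:4490594-4491449), each with 26, and at CDC37L1 (25). At SLC1A1, OCT1 had 14.8 after PTS, the lowest ratio among the shared OCT1 regions, 0.571 with an interval of 0.281 to 1.12. At CDC37L1 it had 18.8 after PTS, with a ratio of 0.752. At GLIS3 the ratio was 0.875, but it sets 26 against a PTS peak that shares no base with the vehicle peak, chr9:4298966-4299370 (22.8). That PTS peak overlaps another vehicle peak, chr9:4299230-4299647, with a pileup of 22.

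Most peaks lay in introns. Introns of protein-coding genes held 58.8% and 62.3% of DNMT3B peaks and 57.2% and 62.7% of OCT1 peaks (PTS and vehicle), and introns make up 66.7% of the 2 Mb. Peaks that touch an exon made up 11.2% and 9.31% for DNMT3B and 8.06% and 9.21% for OCT1, while exons make up 4.49% of the bases. A share of peaks that touch an exon and a share of bases are not the same measure, and peaks were not compared with windows of their own length.

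The peaks were rich in G and C but not in octamers. In 300 bp at the summit the median G + C content was 48.0% and 47.0% for DNMT3B and 48.3% and 49.3% for OCT1 (PTS and vehicle), against 39.3% over all 6666 windows of 300 bp in the 2 Mb. At least 10 CpGs were found in 6.25% and 5.25% of the summit windows of DNMT3B and in 5.83% and 10.8% of those of OCT1 (PTS and vehicle), against 2.84% of all windows. The octamer ATGCAAAT, searched on both strands, was in 7 of 360 whole OCT1 peaks after PTS (1.94%, 0.945 to 3.96) and in 12 of 738 after vehicle (1.63%, 0.933 to 2.82), against 2.82% of all windows. DNMT3B peaks held it in 0 of 80 after PTS (upper Wilson bound 4.58%) and in 7 of 419 after vehicle (1.67%, 0.812 to 3.41). Whole peaks differ in length from the windows of 300 bp. In 300 bp at the summit, the OCT1 shares were 1.11% (0.433 to 2.82) after PTS and 1.22% (0.643 to 2.30) after vehicle. OCT1 peaks therefore did not hold the octamer more often than the region at large, and the octamer is itself rich in A and T. In the strongest OCT1 peak, in the JAK2 intron, the octamer pair shown above lay 548 and 554 bp from the summit after vehicle, and the nearer one 196 bp from the summit after PTS. Another, at chr9:4959205-4959212 upstream of JAK2, lay in an OCT1 peak (pileup 22) and a DNMT3B peak (pileup 14) after vehicle. Perfect tandem repeats of at least 24 bp were in 1.25% and 1.67% of DNMT3B peaks and 1.39% and 2.17% of OCT1 peaks (PTS and vehicle), against 2.30% of all windows.

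JAK2 was set beside the other members of a list of 36 JAK-STAT pathway genes, from cytokine receptors and kinases to STATs, SOCS and PIAS proteins and phosphatases. A DNMT3B peak was assigned to 2 of the 36 genes after PTS and to 8 after vehicle, and an OCT1 peak to 3 after PTS and 22 after vehicle. Over all protein-coding genes the shares were 3.21% and 14.1% for DNMT3B and 12.6% and 57.7% for OCT1. After PTS the other gene with a DNMT3B peak was PTPN1, a phosphatase that acts on JAK2 (1 peak, pileup 15.5, against 1 peak with 15 after vehicle). IL6R, the interleukin 6 receptor, had 0 and 11 DNMT3B peaks and 12 and 44 OCT1 peaks (PTS and vehicle). Its counts were the highest after JAK2 in every list except that of DNMT3B after PTS. The kinase JAK1 had 1 OCT1 peak after PTS (pileup 15.8) and 4 after vehicle (highest 15). STAT3 had 1 DNMT3B peak after vehicle (18) and 1 OCT1 peak after vehicle (13), and IL6ST had none in any list. JAK2 alone had a peak past the P-value of 0.05 in this list of genes, for DNMT3B after vehicle and for OCT1 after both treatments. No gene of the list had one for DNMT3B after PTS. JAK2 lies in a region chosen for its number of peaks, and the other genes were not chosen in that way. Its place among them is therefore a description only. The shares over all protein-coding genes were 0.627% and 0.856% for DNMT3B and 0.737% and 1.43% for OCT1 (PTS and vehicle).

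The region was set beside the other bins of distal 9p and 2 further crowded windows. At the common minima, the ratio of DNMT3B peaks after PTS to those after vehicle was 0.197 in the region and 0.177 in the other bins up to 21 Mb, and the OCT1 ratio was 0.495 and 0.443. At 72 to 74 Mb of chromosome 10 these ratios were 0.406 and 0.754, and at 16 to 18 Mb of chromosome 17 they were 0.379 and 0.777. Median pileups were close, at 17.4 and 15 for DNMT3B in the region (PTS and vehicle), 16.4 and 15 in the other 9p bins, 17.4 and 16 on chromosome 10 and 17.4 and 16 on chromosome 17. The heterochromatin state was listed for 57.5% of DNMT3B peaks after vehicle in the region, for 72.6% in the other 9p bins, for 46.5% on chromosome 10 and for 27.2% on chromosome 17. These windows were themselves chosen for their crowding, and no replicate error is available for the differences.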

How the data were processed

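DNMT3B and OCT1 ChIP-seq was performed in MCF10CA1a cells, and samples were grouped by their labels. Reads were trimmed with cutadapt, aligned to hg19 with BWA, cleared of duplicates and poor reads, and peaks called with MACS2 on 3 pooled replicates at a fragment extension of 200 bp (versions are not stated). The methods name pooled inputs as the control and a differential call, and the labels name lists enriched in PTS or Ctrl, while each list's fold and pileup imply a constant background. ChIPseeker gave genes and ChromHMM of HMEC the states. The deposited pileup is a signal, the fold enrichment a ratio computed by the authors against 1 background value per list, and the −log10 p-values are those deposited by the authors. The deposited P-value is a score derived from them. The background implies a pooled depth of 47.3 and 43.2 M reads for DNMT3B and 47.7 and 47.2 M for OCT1 (PTS and vehicle). The depth of each replicate is unknown.

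Lines that repeat a peak were merged. Gene parts were taken from GENCODE 44 lifted to GRCh37. JAK2 and the genes with most peaks were named, with peaks past the P-value, the 5 highest of each list and those at edges. Members and lists were chosen with earlier results of these data known. Alternatives were tried for joining distance, bins, thresholds, states, motifs and repeats. Computations were tested on simulated data and run in python 3.11.15 with matplotlib 3.10.9, pysam 0.24.0, pandas 2.3.3, scipy 1.17.1 and numpy 2.4.6. The input libraries were not analysed here.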

Additional observations from a re-analysis of the deposited data

How the results depend on the processing

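No paired analysis was possible because each list pools the 3 replicates of a group, and for the same reason no replicate could be left out in turn. Of the alternatives run, 72 values stayed within 1.5 times the count or within the interval of the value reported, and 32 moved. With 50 kb bins the crowded run measured 0.8 Mb for DNMT3B after PTS, and 4.65 and 4.50 Mb for OCT1 after PTS and vehicle. With 5 times the mean it measured 4.60 Mb for OCT1 after PTS, and with 2 times the mean 20.8 Mb for DNMT3B after vehicle. At a P-value of 0.01, 0 DNMT3B peaks remained after vehicle, and 0 OCT1 peaks after PTS and 1 after vehicle. Within 1 kb of the other antibody lay 60% and 84.2% of DNMT3B and 15.6% and 58.7% of OCT1 peaks (PTS and vehicle), and with at least 1 shared base 55.4% of DNMT3B and 31.6% of OCT1 peaks after vehicle. With the first listed state alone, insulator shares were 0.477% for DNMT3B after vehicle and 0.556% and 0.542% for OCT1 (PTS and vehicle), and the OCT1 enhancer share after vehicle was 8.13%. The shorter ATGCAAA was in 6.68% of DNMT3B peaks after vehicle and in 4.72% and 4.88% of OCT1 peaks. Repeats of at least 18 bp were in 3.58% of DNMT3B peaks after vehicle and in 4.44% and 5.28% of OCT1 peaks. By summits inside the gene JAK2 had 1 and 25 DNMT3B peaks and 14 and 31 OCT1 peaks (PTS and vehicle), and with a P-value under 0.05 the JAK-STAT genes with a peak were 0 and 1 for DNMT3B and 1 and 1 for OCT1. The counts by summit and by P-value, and the 300 bp windows at summits, were added after seeing the data. The median PTS over vehicle ratio and the counts at a common minimum stayed within these limits under every alternative run for them. Depth limits single peaks, since pileups of 12 to 32 pooled fragments leave wide counting intervals.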

Other observations

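JAK2 contains a stretch of 8 mitochondrial pseudogenes, copies of mitochondrial DNA in the nuclear genome, between 5091093 and 5110762 of chromosome 9, a span of 19.7 kb. It was looked at after the counts per 100 kb had been seen. DNMT3B had 0 peaks after PTS and 5 after vehicle in this stretch, and OCT1 had 0 after PTS and 2 after vehicle. The longest distance between neighbouring OCT1 summits in JAK2 after PTS, 47.5 kb, spans it. The longest after vehicle do not. For DNMT3B it was 34.6 kb, from 5057792 to 5092407, and lay mostly before the stretch. For OCT1 it was 11.5 kb, from 5070705 to 5082169, and lay wholly before the stretch. How reads from such copies were placed is not given in the sources used here, and its part in the low counts of the JAK2 bins was not tested.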
